A study of Chlamydomonas reinhardtii with 12 samples.

Results

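The 8 nuclear genes studied here belong to alternative electron flow and state transitions, and they were followed in the unicellular green alga Chlamydomonas reinhardtii. They were taken by identifier from the deposited table of 17693 genes, in which all 8 were found: PGRL1 (Cre07.g340200_4532.v6.1), PGR5 (Cre05.g242400_4532.v6.1), FLVA (Cre12.g531900_4532.v6.1), FLVB (Cre16.g691800_4532.v6.1), PTOX2 (Cre03.g172500_4532.v6.1), AOX1 (Cre09.g395950_4532.v6.1), STT7 (Cre02.g120250_4532.v6.1) and STL1 (Cre12.g483650_4532.v6.1). The suffix names the CC-4532 annotation, version 6.1. The study compared the high light response of vip1-1, a strain deficient in inositol pyrophosphates (inositol phosphates that carry a diphosphate group), with that of the wild type. There were 4 groups of 3 biological replicates: vip1-1 in high light (1500 µmol photons m-2 s-1), vip1-1 in control light (50 µmol photons m-2 s-1), wild type in high light and wild type in control light. All 12 libraries carried the CC-1690 label, from cells grown at 25 ºC in TAP, a medium that supplies acetate as a carbon source, and the time spent in high light is not given in the sources used here. Poly(A) RNA was sequenced from stranded libraries, and one vip1-1 strain stood for the deficiency. The gene altered in it was not analysed here, so the strain labels were not checked against it.

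In photosynthesis, linear flow carries electrons from water through both photosystems to NADPH. The pathways studied here return electrons to the plastoquinone pool or pass them to oxygen, which relieves an over-reduced chain and helps to build the proton gradient. State transitions move light-harvesting antenna between the photosystems when a thylakoid kinase, activated by reduced plastoquinone, phosphorylates it. In mitochondria an alternative oxidase similarly lets electrons bypass some of the proton-pumping complexes of the respiratory chain.

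Values are FPKM, a fragment count divided by transcript length and by the size of the library, so that levels can be compared between genes. Sequencing depth is unknown, so errors come only from the spread between replicates. Each gene had 1 estimate of it, shared by the 4 groups and drawn towards that of other genes. The FPKM totals of the libraries lay between 651369 and 767459. Changes were taken as differences of log2(FPKM + 1), where those of weak genes come out too small, and were tested with limma over 12575 genes with Benjamini-Hochberg adjustment and a threshold of 0.05. The median of all tested genes itself moved in these comparisons, so changes are also given relative to it. The libraries differed in how many genes were listed at 0 although both other replicates had at least 1 FPKM, from 4 genes up to 177. The library with 177 was replicate 1 of vip1-1 high light, and the next, with 94, was replicate 2 of wild-type high light. None of the 96 values of the 8 genes was listed at 0.

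**Figure D1:**
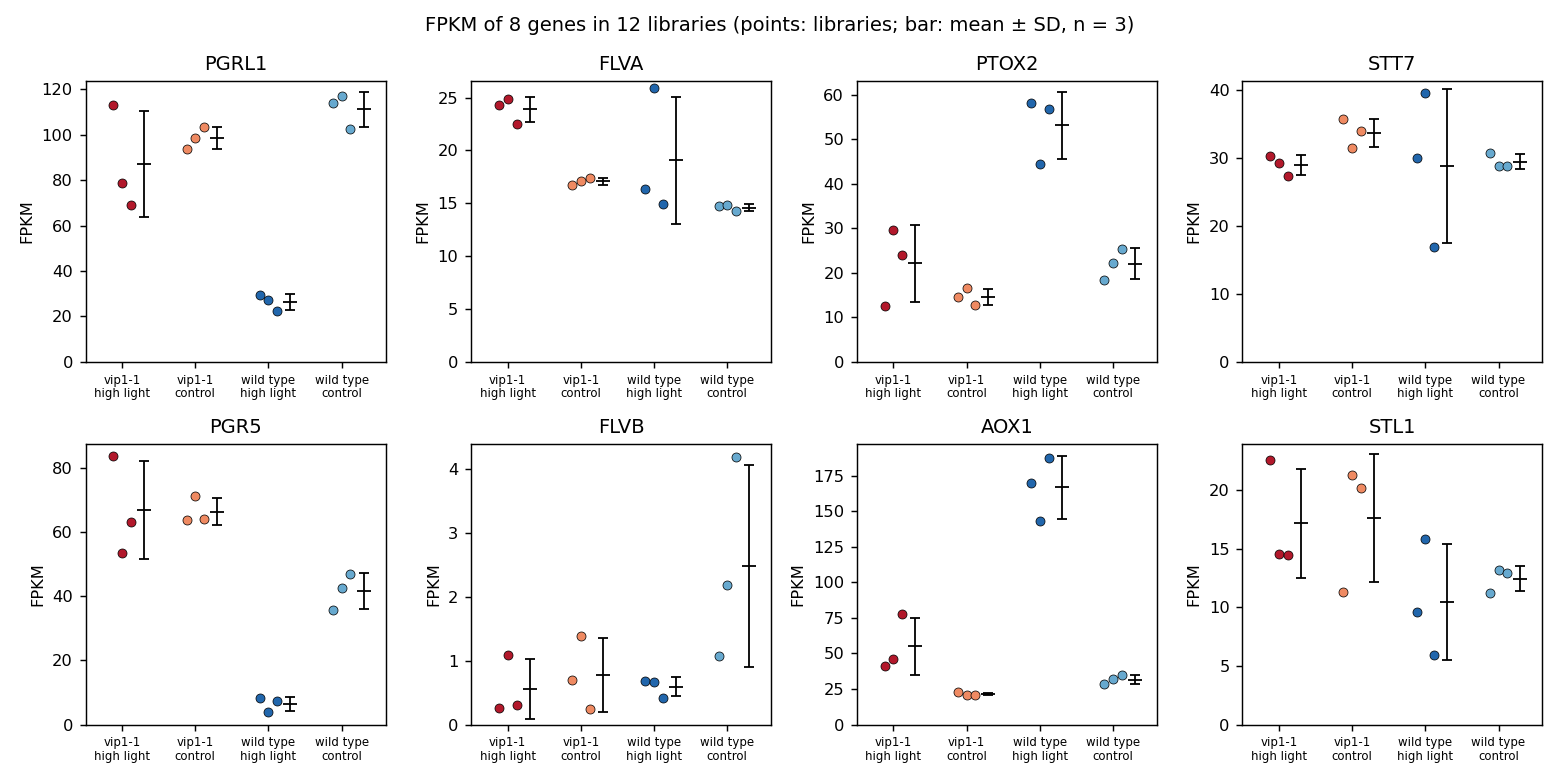
FPKM of each of the 8 genes (vertical axes, starting at 0) in vip1-1 high light, vip1-1 control, wild-type high light and wild-type control libraries; points are libraries and bars are the mean ± SD of 3. PGR5 stood between 4.04 and 8.24 FPKM in wild-type high light and at 35.8 FPKM or more in the 9 other libraries, while AOX1 was highest in wild-type high light.

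The question put first was which of these transcripts responded to high light in the wild type. Both cyclic electron flow genes fell, both terminal oxidase genes rose, and FLVA and both kinase genes did not pass the test. FLVB is given apart, since it passed the filter on low values (at least 1 FPKM in at least 3 libraries) only through wild-type control, where it was highest. Of the 7 other genes 2 were higher and 2 lower. FPKM are shares of a library, so less of a transcript per cell and more of the others cannot be told apart. Among all tested genes 44.7% were called higher and 13.7% lower in this comparison, so a call in itself was common here (58.4% in either direction). Ranges that did not overlap between the groups were as common, with 5 of these 7 genes and 66.6% of all tested genes. The median log2 change was -0.11 over the 7 genes and 0.39 over all tested genes. With libraries centred on their medians, the calls of all genes were 46.5% higher instead of 76.5%, and the same number of the 7 genes was called in each direction.

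PGRL1 encodes a thylakoid membrane protein that takes part in cyclic electron flow around photosystem I. Its level was 29.4, 27.4 and 22.2 FPKM in wild-type high light replicates 1, 2 and 3, against 114, 117 and 103 FPKM in wild-type control. The groups were far apart and each was narrow. The log2 change was -2.04 (SE 0.18, limma adjusted p 1.63e-05), and the mean was 4.22 times lower. Relative to the median gene the change was -2.44.

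PGR5 encodes a small plastid protein required for the antimycin-sensitive route of cyclic flow in plants, and it acts together with PGRL1. It had 8.24, 4.04 and 7.29 FPKM in wild-type high light and 35.8, 42.5 and 46.9 FPKM in wild-type control. Again the 2 groups did not overlap, and the log2 change came to -2.55 (SE 0.23, limma adjusted p 2.02e-05), which is -2.94 relative to the median gene. Among the tested genes of a library, PGR5 had a mean percentile rank of 48.8 in wild-type high light and 91.5 in wild-type control. The mean percentile rank of PGRL1 was 82.3 in wild-type high light and 96.3 in wild-type control.

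The flavodiiron proteins FLVA and FLVB work together downstream of photosystem I, where they reduce oxygen to water. FLVA had 16.3, 25.9 and 14.9 FPKM in wild-type high light, against 14.7, 14.8 and 14.3 FPKM in wild-type control. The high value was that of replicate 2, while replicates 1 and 3 lay close to the control range. The log2 change of 0.32 (95% confidence interval -0.055 to 0.70, limma adjusted p 0.127) was not past the threshold. Its sign depended on the scaling: it was -0.10 after median centring and -0.19 after quantile normalization, and 0.49 (limma adjusted p 0.0224) when each library was scaled to one FPKM total. Without wild-type high light replicate 2 it was 0.091 (limma adjusted p 0.435), and without replicate 3 it was 0.47 (limma adjusted p 0.0394).

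FLVB was the weakest of the 8 genes in all 12 libraries. It had 0.69, 0.67 and 0.42 FPKM in wild-type high light and 1.08, 2.18 and 4.19 FPKM in wild-type control. The control values were thus spread 3.88-fold while the high light values stayed below the lowest of them. The log2 change was -1.03 (SE 0.34, limma adjusted p 0.0229). FLVB had reached the limit of 1 FPKM in all 3 wild-type control libraries and in 2 others, so the control group alone carried it through the filter and its p supports no count. The value also lost the threshold without wild-type high light replicate 3 (limma adjusted p 0.0663), without wild-type control replicate 2 (0.0518) and without wild-type control replicate 3, where the log2 change was -0.70 (0.0966).

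PTOX2 encodes the plastid terminal oxidase that is the main plastoquinol oxidase of chlororespiration in Chlamydomonas. It had 58.2, 44.5 and 56.9 FPKM in wild-type high light and 18.5, 22.3 and 25.5 FPKM in wild-type control. Every high light library was above every control library. PTOX2 thus rose by 1.23 log2 units (SE 0.26, limma adjusted p 0.00252), 0.84 above the median gene. Over the scalings and the other alternatives it ranged between 0.73 and 1.41, past the threshold in all 22.

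AOX1 encodes a mitochondrial alternative oxidase, which passes electrons from ubiquinol to oxygen. It had 170, 143 and 187 FPKM in wild-type high light and 28.3, 31.7 and 34.5 FPKM in wild-type control. Its mean was 5.30 times higher in high light, the largest increase of a mean among the 8 genes. The log2 change was 2.36 (SE 0.21, limma adjusted p 1.95e-05), which is 1.97 above the median gene. On average it was the most abundant of the 8 transcripts in wild-type high light, whereas PGRL1 was the most abundant in the other 3 groups.

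STT7 is the thylakoid kinase that phosphorylates light-harvesting antenna proteins in state transitions. It had 30.0, 39.5 and 16.95 FPKM in wild-type high light, against 30.7, 28.8 and 28.7 FPKM in wild-type control. The high light replicates lay on both sides of a tight control group. For STT7 the log2 change was -0.11 (95% confidence interval -0.62 to 0.41, limma adjusted p 0.714), so a change of 1 log2 unit in either direction lay outside the interval. This bound is for the values as deposited. Relative to the median gene STT7 changed by -0.50, and after median centring by -0.53 (limma adjusted p 0.151). STL1 encodes the related kinase of Chlamydomonas, the counterpart of STN8 in Arabidopsis, where STN8 phosphorylates core proteins of photosystem II. It had 9.60, 15.8 and 5.97 FPKM in wild-type high light and 11.2, 13.2 and 12.9 FPKM in wild-type control. As for STT7, replicate 2 was above and replicate 3 below all controls. Replicate 1 was also below all controls for STL1, while for STT7 it lay within the control range. For STL1 the log2 change was -0.32 (95% confidence interval -1.03 to 0.39, limma adjusted p 0.413).

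In vip1-1 the same light shift called 1 of the 8 genes, AOX1, which rose. None was called lower by limma, which is not read as a result about the 8, since few of all tested genes were. Of all tested genes 41.5% were called in this comparison, 37.4% higher and 4.09% lower. The fits that left out replicate 1 or replicate 2 of vip1-1 control called 3318 and 2991 genes, against 5223 with all libraries. The median log2 change was -0.014 over the 7 genes other than FLVB and 0.38 over all tested genes. After median centring 39.2% of the called genes were higher instead of 90.2%, and AOX1 was again the gene called. The ranges of the groups did not overlap for 3 of these 7 genes, against 54.9% of all tested genes.

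PGRL1 had 113, 78.8 and 69.0 FPKM in vip1-1 high light, against 93.8, 98.7 and 103 FPKM in vip1-1 control. The high light libraries lay on both sides of the control range, with replicate 1 above it. Its log2 change was -0.21 (95% confidence interval -0.60 to 0.18, limma adjusted p 0.354), which was -0.41 (limma adjusted p 0.0354) without vip1-1 high light replicate 1 and -0.059 (limma adjusted p 0.810) without replicate 3. Relative to the median gene PGRL1 changed by -0.59, and after median centring by -0.63 (limma adjusted p 0.0839). PGR5 had 83.5, 53.6 and 63.2 FPKM in vip1-1 high light and 63.9, 71.2 and 64.1 FPKM in vip1-1 control. Its groups overlapped as well, and the log2 change was -0.014 (95% confidence interval -0.52 to 0.50, limma adjusted p 0.966). Relative to the median gene PGR5 changed by -0.39, and after median centring by -0.44 (limma adjusted p 0.209).

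FLVA had 24.3, 24.9 and 22.5 FPKM in vip1-1 high light and 16.7, 17.1 and 17.4 FPKM in vip1-1 control. The 2 groups did not overlap, and each was narrow. The log2 change of 0.46 (SE 0.17) missed the threshold with a limma adjusted p of 0.0517. A fit to the 6 vip1-1 libraries alone gave a limma adjusted p of 0.0215, and fits without wild-type high light replicate 2 or 3 gave 0.00314 and 0.0334. Median centring gave a log2 change of 0.034 (limma adjusted p 0.935), close to that of the median gene. FLVB was low in both groups, at 0.26, 1.09 and 0.30 FPKM in vip1-1 high light and 0.70, 1.39 and 0.25 FPKM in vip1-1 control. These values overlapped (log2 change -0.19, 95% confidence interval -0.94 to 0.57, limma adjusted p 0.677).

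PTOX2 had 12.6, 29.7 and 24.1 FPKM in vip1-1 high light, against 14.6, 16.5 and 12.8 FPKM in vip1-1 control. Replicates 2 and 3 were above the controls and replicate 1 was below them. The log2 change was 0.49 (95% confidence interval -0.091 to 1.08, limma adjusted p 0.153). Without vip1-1 high light replicate 1 it was 0.84 and passed the threshold (limma adjusted p 0.00613), and without replicate 2 it was 0.25 (limma adjusted p 0.450). AOX1 had 41.0, 45.9 and 78.0 FPKM in vip1-1 high light and 22.7, 21.0 and 21.1 FPKM in vip1-1 control. All high light values exceeded all control values, with replicate 3 the highest. AOX1 rose by 1.25 log2 units (SE 0.21, limma adjusted p 0.00219), 0.88 above the median gene, and its mean was 2.55 times higher.

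STT7 had 30.2, 29.2 and 27.4 FPKM in vip1-1 high light, against 35.6, 31.4 and 33.9 FPKM in vip1-1 control. High light libraries were all lower, by a small step relative to the spread shared over the groups (log2 change -0.21, 95% confidence interval -0.73 to 0.30, limma adjusted p 0.480). STL1 had 22.6, 14.5 and 14.4 FPKM in vip1-1 high light and 11.3, 21.3 and 20.2 FPKM in vip1-1 control. Replicate 1 stood apart in each group, high in one and low in the other, and the log2 change was -0.016 (95% confidence interval -0.73 to 0.70, limma adjusted p 0.973).

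**Figure D2:**
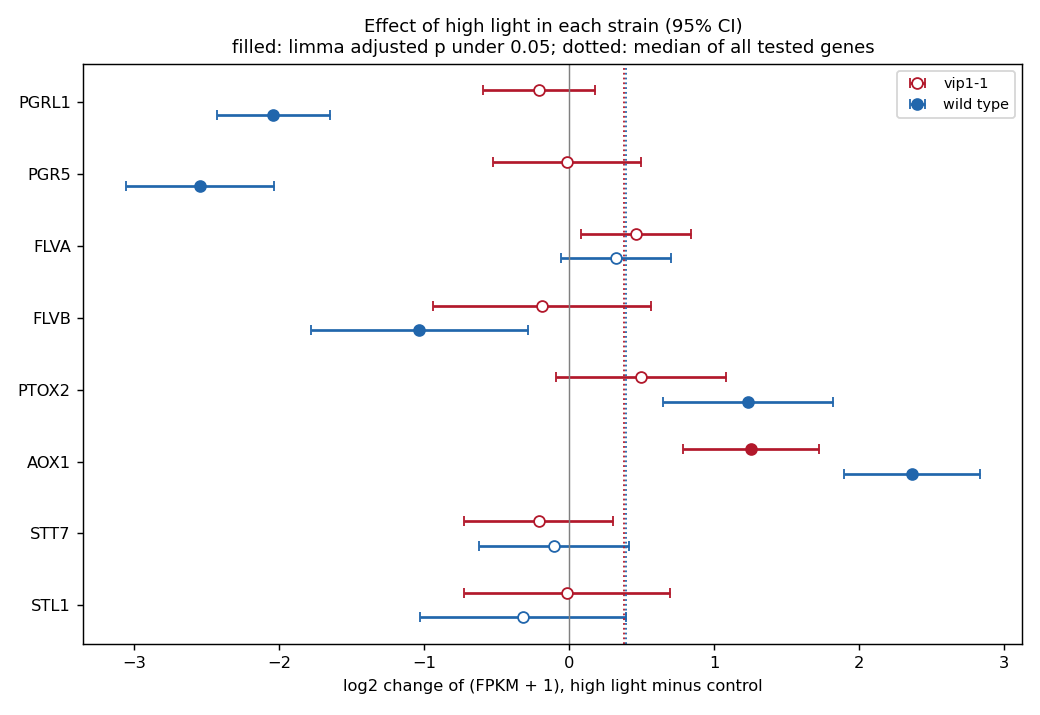
Change of log2(FPKM + 1), high light minus control, for each gene in vip1-1 (upper of each pair) and wild type (lower), with 95% confidence intervals; filled points have a limma adjusted p under 0.05 and dotted lines mark the median of all tested genes. The wild-type points of PGRL1 (-2.04) and PGR5 (-2.55) lie far left of their vip1-1 counterparts (-0.21 and -0.014).

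Whether the light response itself differed between the strains was tested by the interaction, the log2 light effect in vip1-1 minus that in the wild type. It was called for 3 of the 8 genes: PGR5 and PGRL1 with a positive value and AOX1 with a negative one. Over all tested genes 8.71% were called, 3.82% positive and 4.89% negative. Leaving out single libraries moved this total of 1095 genes over a range from 516 (without wild-type control replicate 2) up to 1932 (without wild-type high light replicate 2). The median interaction was 0.14 over the 7 genes other than FLVB and 0.0011 over all tested genes. Under the 4 other scalings the same number of the 8 genes was called in each direction, with 952 to 1253 of all tested genes called.

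For PGR5 the interaction was 2.53 (SE 0.33, 95% confidence interval 1.81 to 3.25, limma adjusted p 0.00290), and for PGRL1 it was 1.83 (SE 0.25, 95% confidence interval 1.28 to 2.38, limma adjusted p 0.00349). Both held under all 21 alternatives, with values between 2.27 and 2.86 for PGR5 and between 1.63 and 2.22 for PGRL1. The light effect was thus less negative in vip1-1 than in the wild type for both partners of the cyclic route. For AOX1 the interaction was -1.11 (SE 0.30, 95% confidence interval -1.77 to -0.45, limma adjusted p 0.0453). This call sat at the threshold: leaving out 1 library at a time removed it in 10 of 12 cases, with a limma adjusted p of up to 0.109, while the value over the 12 ranged between -1.39 and -0.93. It was kept without vip1-1 high light replicate 3 and without wild-type high light replicate 2. With all libraries the AOX1 call was also lost with a pseudocount of 0.1 (limma adjusted p 0.0555) and with no filter on low values (0.0538).

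No difference in the light effect was called for the other 5 genes. The interaction of PTOX2 was -0.74 (95% confidence interval -1.57 to 0.090, limma adjusted p 0.245) and that of FLVB was 0.85 (95% confidence interval -0.21 to 1.91, limma adjusted p 0.298). Both intervals still include differences of more than 1 log2 unit. Without vip1-1 high light replicate 1 the PTOX2 value was -0.40 (limma adjusted p 0.320), and without wild-type control replicate 3 the FLVB value was 0.51 (limma adjusted p 0.541). The intervals were narrower for FLVA, with an interaction of 0.14 (-0.40 to 0.67, limma adjusted p 0.763), and for STT7, with -0.11 (-0.84 to 0.62, limma adjusted p 0.872). STL1 had an interaction of 0.30 (95% confidence interval -0.70 to 1.31, limma adjusted p 0.719).

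**Figure D3:**
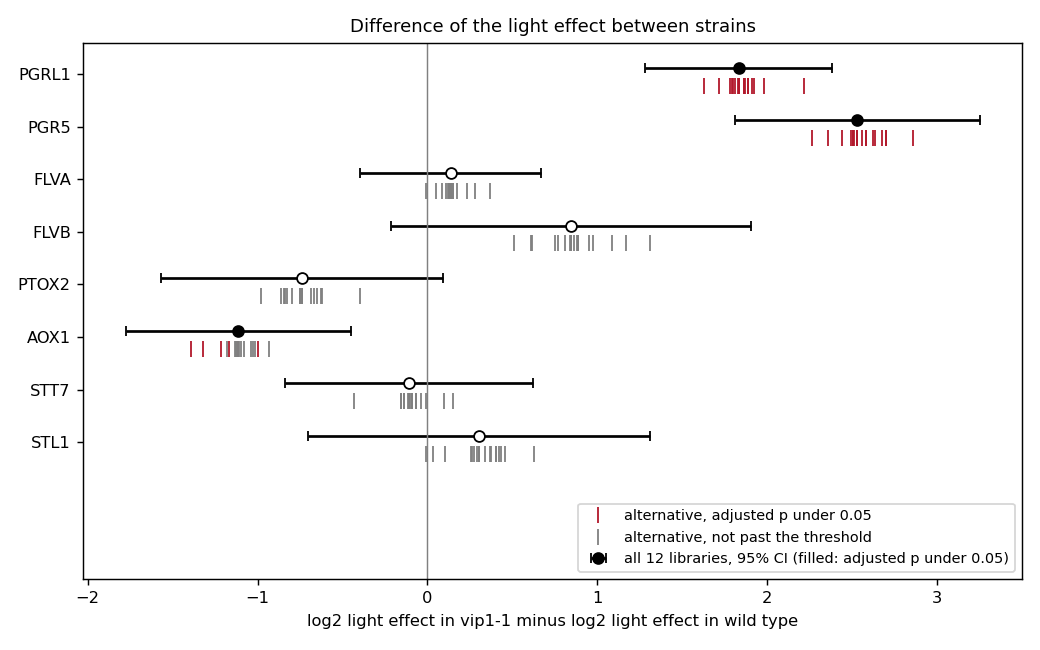
Light effect in vip1-1 minus light effect in wild type (log2) for each gene, with the 95% confidence interval from all 12 libraries (circles) and the values under each alternative processing or left-out library (ticks; red where the limma adjusted p was under 0.05). All ticks of PGR5 and PGRL1 are red, those of AOX1 are of both colours between -1.39 and -0.93, and those of the other 5 genes are grey.

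The strains were next compared within each light level. In high light 4 of the 8 genes differed: PGR5 and PGRL1 were higher in vip1-1, and AOX1 and PTOX2 were lower. Of all tested genes 12.1% were called higher and 34.4% lower, 46.4% in all, and 47.5% had ranges that did not overlap, as did 4 of the 7 genes other than FLVB. In a fit to the 6 high light libraries alone, 3538 genes were called, against 5838 in the fit to all 12. The median log2 difference was 0.35 over the 7 genes and -0.28 over all tested genes. After median centring 54.3% of all called genes were higher instead of 26.0%, and 6 of the 8 were called, with FLVA and STL1 added to the higher ones.

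PGR5 averaged 66.8 ± 15.3 FPKM in vip1-1 high light and 6.52 ± 2.20 FPKM in wild-type high light (SD, n = 3 each), a ratio of 10.2. The log2 difference was 3.19 (SE 0.23, limma adjusted p 1.12e-05), which is 3.47 above the median gene. PGRL1 averaged 87.0 ± 23.3 FPKM in vip1-1 high light and 26.4 ± 3.71 FPKM in wild-type high light (SD, n = 3 each). Its log2 difference was 1.66 (SE 0.18, limma adjusted p 5.96e-05). The lowest vip1-1 library, with 69.0 FPKM, was above the highest wild-type one, with 29.4 FPKM.

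AOX1 averaged 55.0 ± 20.1 FPKM in vip1-1 high light and 167 ± 22.2 FPKM in wild-type high light (SD, n = 3 each). The log2 difference was -1.63 (SE 0.21, limma adjusted p 0.000181). PTOX2 averaged 22.1 ± 8.71 FPKM in vip1-1 high light and 53.2 ± 7.53 FPKM in wild-type high light (SD, n = 3 each). It differed by -1.30 on the log2 scale (SE 0.26, limma adjusted p 0.00257). For both oxidases every vip1-1 value lay below every wild-type value. These 4 calls held in all 22 alternatives.

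FLVA had a log2 difference of 0.35 between the strains in high light (95% confidence interval -0.028 to 0.73, limma adjusted p 0.118). Wild-type replicate 2, with 25.9 FPKM, stood above all 3 vip1-1 libraries and the 2 others below them. Without that replicate the difference was 0.58 and passed the threshold (limma adjusted p 0.000915). It was 0.20 without wild-type replicate 3 (limma adjusted p 0.364) and 0.69 after median centring (limma adjusted p 0.0316). STL1 averaged 17.2 ± 4.66 FPKM in vip1-1 high light and 10.5 ± 4.98 FPKM in wild-type high light (SD, n = 3 each). Its log2 difference of 0.73 was not called (limma adjusted p 0.0872). It was 1.07 after median centring (limma adjusted p 0.0431) and 1.05 without wild-type high light replicate 2 (limma adjusted p 0.0144), and without replicate 3 it was 0.42 (limma adjusted p 0.303). STT7 differed by 0.082 (95% confidence interval -0.43 to 0.60, limma adjusted p 0.801) and FLVB by -0.074 (-0.82 to 0.68, limma adjusted p 0.877).

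In control light 1 of the 8 genes differed, PGR5, which was higher in vip1-1. Of all tested genes 6.39% were called higher and 26.0% lower (32.4% in all), and after median centring 59.0% of the called genes were higher instead of 19.7%. Leaving out replicate 2 of wild-type control gave 2667 called genes and a fit to the 6 control libraries alone gave 6856, against 4079. The median log2 difference was 0.19 over the 7 genes other than FLVB and -0.29 over all tested genes. PGR5 averaged 66.4 ± 4.15 FPKM in vip1-1 control and 41.8 ± 5.61 FPKM in wild-type control (SD, n = 3 each), without overlap. The log2 difference of 0.66 (SE 0.23) had a limma adjusted p of 0.0490. This call did not hold in 13 of 22 alternatives, among them the fits without replicate 3 of either high light group and without any 1 of the 6 control libraries. The limma adjusted p reached 0.147 without wild-type control replicate 1, and the difference ranged between 0.56 and 1.01 over all 22.

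PGRL1 averaged 98.6 ± 4.73 FPKM in vip1-1 control and 111 ± 7.67 FPKM in wild-type control (SD, n = 3 each), a log2 difference of -0.17 (95% confidence interval -0.56 to 0.22, limma adjusted p 0.485). AOX1 averaged 21.6 ± 0.97 FPKM in vip1-1 control and 31.5 ± 3.15 FPKM in wild-type control, and PTOX2 averaged 14.6 ± 1.87 FPKM in vip1-1 control and 22.1 ± 3.49 FPKM in wild-type control (SD, n = 3 each). Neither pair of ranges overlapped, and the log2 differences of -0.52 for AOX1 (limma adjusted p 0.0819) and -0.56 for PTOX2 (limma adjusted p 0.129) were not past the threshold. Ranges without overlap were found for 5 of the 7 genes other than FLVB and 63.0% of all tested genes in this comparison. In the fit to the 6 control libraries alone AOX1 (limma adjusted p 0.00396), PTOX2 (0.0157) and FLVA (0.0329) were called as well as PGR5. Without vip1-1 high light replicate 3 the adjusted p of AOX1 was 0.0122, and without vip1-1 high light replicate 1 that of PTOX2 was 0.0238 (limma).

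FLVB averaged 0.78 ± 0.58 FPKM in vip1-1 control and 2.48 ± 1.58 FPKM in wild-type control (SD, n = 3 each). The ranges overlapped, and the log2 difference was -0.92 (limma adjusted p 0.0601). It was -1.24 without wild-type control replicate 1 (limma adjusted p 0.0227), -1.16 without vip1-1 control replicate 2 (0.0454) and -0.58 without wild-type control replicate 3 (0.210). FLVB passed the filter only through wild-type control, where it was highest, so its p in a comparison with that group supports no difference. FLVA averaged 17.1 ± 0.35 FPKM in vip1-1 control and 14.6 ± 0.29 FPKM in wild-type control (SD, n = 3 each), a small log2 difference of 0.21 (limma adjusted p 0.365). STT7 and STL1 had log2 differences of 0.19 (95% confidence interval -0.33 to 0.70) and 0.43 (-0.29 to 1.14), with limma adjusted p of 0.569 and 0.337.

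**Figure D4:**
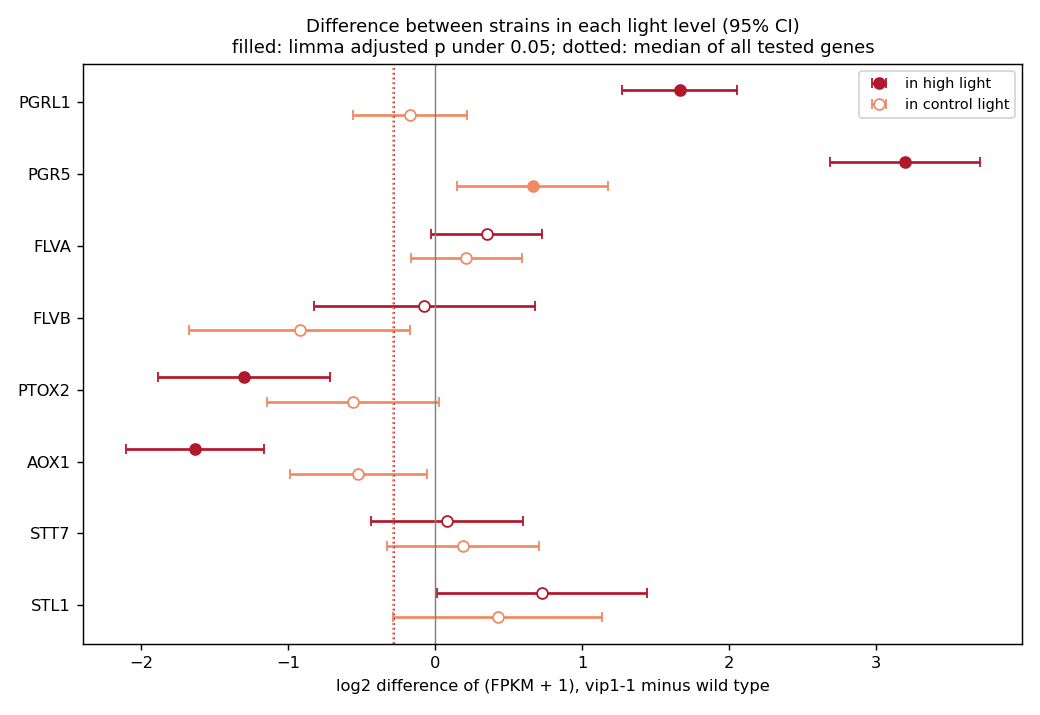
Difference of log2(FPKM + 1), vip1-1 minus wild type, in high light (upper of each pair) and control light (lower), with 95% confidence intervals; filled points have a limma adjusted p under 0.05 and dotted lines mark the median of all tested genes. PGR5 (3.19) and PGRL1 (1.66) lie to the right in high light, and AOX1 (-1.63) and PTOX2 (-1.30) to the left.

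Taking the 4 groups in order of level, AOX1 was highest in wild-type high light, then vip1-1 high light, then wild-type control and lowest in vip1-1 control, and no neighbouring ranges overlapped. PTOX2 was highest in wild-type high light, and the values of vip1-1 high light overlapped those of both control groups. PGR5 was highest in both vip1-1 groups, which overlapped, lower in wild-type control and lowest in wild-type high light. PGRL1 was lowest in wild-type high light, and the 3 other groups overlapped one another in part.

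Ratios of 2 genes within a library do not change when the whole library is multiplied by a factor, though quantile normalization can change them. PGR5 over PGRL1 was 0.74, 0.68 and 0.92 in vip1-1 high light, 0.68, 0.72 and 0.62 in vip1-1 control, 0.28, 0.15 and 0.33 in wild-type high light and 0.31, 0.36 and 0.46 in wild-type control. All 6 vip1-1 libraries thus had a higher ratio than all 6 wild-type libraries, while the light groups overlapped within each strain. PGRL1 over AOX1 was 2.77, 1.72 and 0.88 in vip1-1 high light against 4.13, 4.70 and 4.90 in vip1-1 control. In the wild type it was 0.17, 0.19 and 0.12 in high light against 4.03, 3.69 and 2.97 in control. This ratio was lower in every high light library than in every control library of the same strain, and wild-type high light lay below vip1-1 high light without overlap. It combines the values of PGRL1 and AOX1 already given, so it adds no separate support to their changes.

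AOX1 over PTOX2 averaged 2.68 ± 0.98 in vip1-1 high light, 1.49 ± 0.20 in vip1-1 control, 3.15 ± 0.20 in wild-type high light and 1.44 ± 0.086 in wild-type control (SD, n = 3 each). The mitochondrial oxidase gene therefore gained on the plastid one in every wild-type high light library. In vip1-1 high light the ratio was 3.25 and 3.24 in replicates 1 and 3 and 1.55 in replicate 2, the last within the range of vip1-1 control. STL1 over STT7 averaged 0.59 ± 0.14 in vip1-1 high light, 0.53 ± 0.19 in vip1-1 control, 0.36 ± 0.040 in wild-type high light and 0.42 ± 0.052 in wild-type control (SD, n = 3 each). STT7 exceeded STL1 in all 12 libraries, although both kinases shared the scatter of wild-type high light, and their ratio there stayed between 0.32 and 0.40. FLVA over FLVB ranged from 3.41 in wild-type control replicate 3 to 92.3 in vip1-1 high light replicate 1, with most of the scatter in FLVB.

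**Figure D5:**
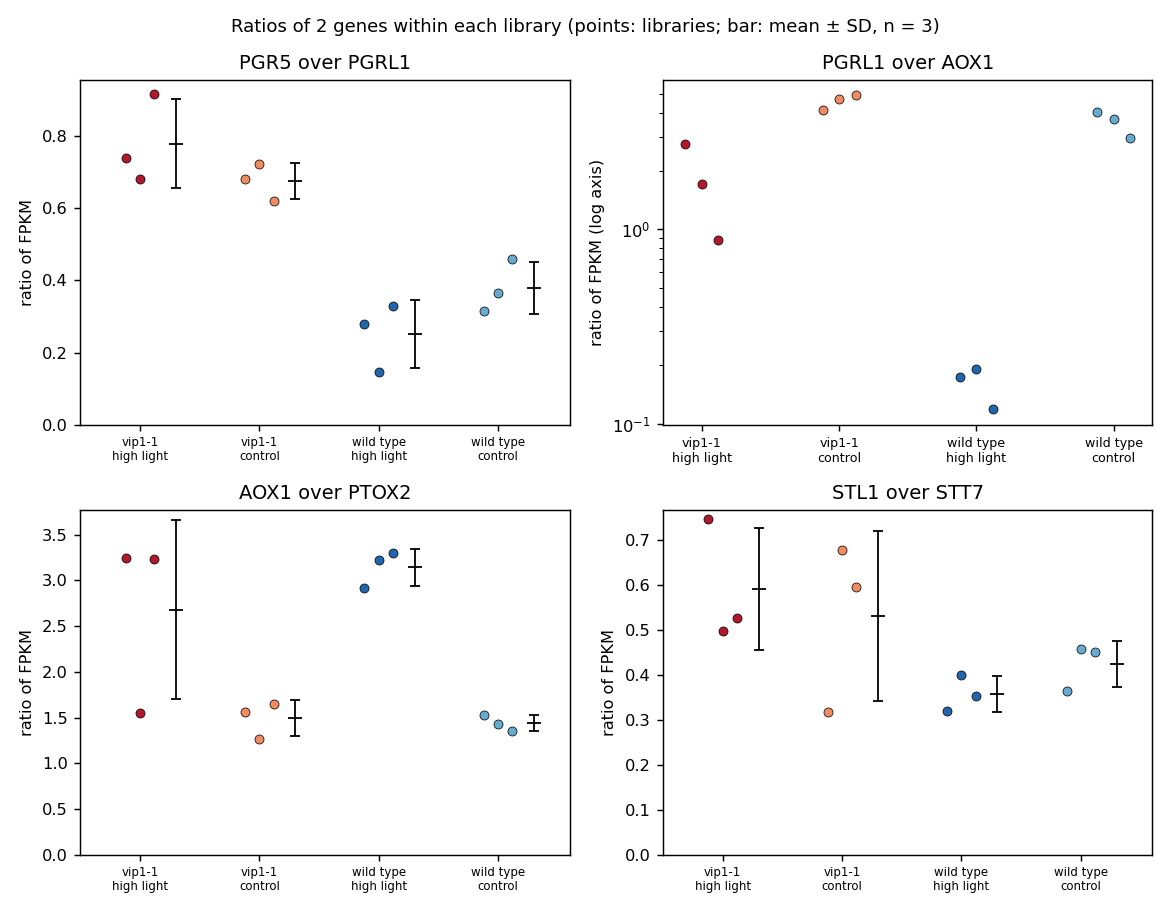
Ratio of the FPKM values of 2 genes in the same library, by group; points are libraries and bars are the mean ± SD of 3, except for PGRL1 over AOX1, which is drawn on a log axis without bars. PGR5 over PGRL1 is 0.62 or higher in vip1-1 and 0.46 or lower in wild type, and PGRL1 over AOX1 is lowest in wild-type high light (0.12 to 0.19).

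Single libraries stood out in several genes at once. In vip1-1 high light, replicate 1 had the highest PGRL1, PGR5, STT7 and STL1 values and the lowest PTOX2, AOX1 and FLVB values of its group. It was also the library with 177 isolated values of 0 over all genes, and the part of this in the results was not tested. In wild-type high light, replicate 2 had the highest FLVA, STT7 and STL1 values and the lowest PGR5, PTOX2 and AOX1 values, and it was the library with 94 isolated values of 0, whose part was likewise not tested. Leaving out either library kept the interactions of PGR5 and PGRL1 past the threshold.

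The tested genes most like 2 of the members were looked up by Pearson's r of log2(FPKM + 1) over the 12 libraries, as a description, since the libraries fall into 4 groups. The genes most like PGR5 were Cre05.g233900_4532.v6.1 (r = 0.98) and Cre07.g355150_4532.v6.1 (r = 0.98), and those most like AOX1 were Cre01.g000300_4532.v6.1 (r = 0.99) and Cre16.g683450_4532.v6.1 (r = 0.99). The annotation used here gives these identifiers no name. An r of at least 0.9 was reached by 2005 tested genes for AOX1 (16.0%) and by 926 for PTOX2 (7.37%), against 125 for PGRL1, 111 for FLVB and 85 for PGR5. Only 11 genes reached it for FLVA, 4 for STT7 and 3 for STL1. Many genes of the table thus had a profile like that of AOX1. The kinase genes were called in no comparison as reported, so their low counts are not read as a rare profile.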

How the data were processed

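The authors deposited one FPKM value per gene and library, per the file headers. HISAT2 and StringTie are named in the submitters' processing notes, without role or version; filters, normalization between libraries and depth are not given in the sources used here. Low values (up to 0.15 FPKM) showed no steps of whole reads in the 66 pairs of libraries, where the most common ratio held 0.52% to 1.75% of genes, so no count model was used.

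The scale of the tests was log2(FPKM + 1). Genes with at least 1 FPKM in at least 3 libraries were tested, which left 12575 and all 8 members. A model of 4 group means was fitted to 12 libraries with limma 3.58.1 in R 4.3.3 (empirical Bayes, variance trend), with 5 two-sided contrasts and Benjamini-Hochberg adjustment over all tested genes. Confidence intervals are limma's, at 95%, without adjustment. The labels call the replicates biological without naming separate cultures. The p-values thus set a difference of group means against the spread between these samples, shared by the groups. How reads shared by related genes were counted is not given in the sources used here. Plots were made in Python 3.11.15 with matplotlib 3.10.9.

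The members and lists were chosen with earlier results of these data known. The reference table (assembly v5.5, CC-503) matched all 8 identifiers by locus tag but gives no gene symbols, sequences or coordinates on the files' annotation, so the list of related pathway genes was left out, gene locations are not given, and likeness is printed for 2 members. Alternatives were other pseudocounts, filters, scalings, a variance model, fits to the compared groups alone, a block for the replicate number, and fits without each library in turn.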

Additional observations from a re-analysis of the deposited data

Results flagged for a closer look

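A difference of the light effect between the strains was called, by the interaction term, in 3 of the 8 genes and in 8.71% of all tested genes. PGR5 had an interaction of 2.53 (limma adjusted p 0.00290), with all 3 wild-type high light libraries below all 3 wild-type controls and no such separation in vip1-1. PGRL1 had an interaction of 1.83 (limma adjusted p 0.00349), with the same separation in the wild type and overlapping groups in vip1-1. AOX1 had an interaction of -1.11 (limma adjusted p 0.0453, 0.00385 to 0.109 over its alternatives), a call lost in 12 of its 21 alternatives. All its high light libraries were above all controls in both strains, by a log2 change of 1.25 in vip1-1 and 2.36 in wild type. Groups of 3 libraries were too small to test for single outlying values, so the libraries said above to stand out are described only.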

How the results depend on the processing

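Of 867 values of single genes under alternatives, 787 kept their direction and side of the threshold, and none that was past the threshold changed sign. The number of the 8 genes called for high light in vip1-1 was 1 as reported. It was 2 with a pseudocount of 0.1, mean FPKM of at least 5, one FPKM total and the vip1-1 libraries alone. FLVA was the added gene each time. Over all tested genes these settings called 5516, 3071, 6108 and 4352, against 5223 as reported. Without single libraries the number was 1 to 3, and 2991 to 6029 over all tested genes. For the strains in control light the number was 1 as reported. It was 0 with a pseudocount of 0.1, no filter, mean FPKM of at least 5, one FPKM total and the replicate block. Over all tested genes these settings called 4282, 4590, 2082, 3943 and 3637, against 4079 as reported. With the control libraries alone 4 of the 8 were called, and 6856 of the 12575 tested genes. Without single libraries the number was 0 to 2, and 2667 to 4844 over all tested genes. The number lay between 4 and 6 for high light in wild type and for the strains in high light, and between 2 and 3 for the interaction. Over all tested genes, 4173 to 8043 were called for high light in wild type and 3325 to 6505 for the strains in high light. For the interaction 516 to 1932 were called. The filters also changed how many genes were tested. Counting only the 7 genes that reach the filter without any 1 group, an alternative chosen after seeing the data, gave 4 for high light in wild type and left the other 4 numbers as reported. The cause of these moves was not tested.

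Signs that turned belonged to values not past the threshold. For high light in wild type, FLVA was -0.10 with median centring, -0.19 with quantile normalization and -0.16 with the FPKM total outside the 1000 most abundant genes, and STT7 was 0.069 with one FPKM total. With one FPKM total the change in vip1-1 was 0.11 for PGR5 and 0.10 for STL1. In control light PGRL1 was 0.17 with median centring and 0.10 with the total outside the 1000 most abundant genes. In high light the strain difference of FLVB was 0.27, 0.17 and 0.043 with median centring, quantile normalization and that same total. The interaction of STT7 was 0.10 with quantile normalization. With single libraries left out, the ranges that crossed 0 were -0.37 to 0.22 for STT7 in wild type, -0.19 to 0.13 for PGR5, -0.42 to 0.054 for FLVB and -0.29 to 0.14 for STL1 in vip1-1, -0.31 to 0.055 for FLVB and -0.25 to 0.34 for STT7 between strains in high light, and -0.0098 to 0.37 for FLVA, -0.43 to 0.15 for STT7 and -0.0085 to 0.63 for STL1 in the interaction.

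Over all genes, the count for high light in vip1-1 fell to 1901 with quantile normalization, against 5223 as reported, and the interaction count ranged between 516 and 1932 without single libraries, against 1095. The replicate numbers showed no general pairing of the libraries: 4 of 18 same-numbered pairs deviated together with r over 0.1, and 2 of 12 libraries were most like one of their own number. Between the light levels of vip1-1, r was -0.11, 0.48 and 0.18 for replicates 1, 2 and 3, so the check does not settle pairing there. With the replicate block the interaction count over all genes was 744, PGR5 in control light had a limma adjusted p of 0.0585, and no other call among the 8 genes changed. At about 1 FPKM or less, as for FLVB, the unknown depth limits what can be seen.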
